A study of Mus musculus with 12 samples.

Results

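The miR-378 family was followed in small RNA libraries of mitochondria isolated from mouse hearts. Its members were taken by name: both arms of miR-378a, listed as mmu-miR-378a-3p and mmu-miR-378a-5p (mean levels 28215 and 2768 RPM), and the related miR-378b, miR-378c and miR-378d. All 5 were among the 932 rows of the deposited table, and all 5 passed the filter on low values, a mean of at least 1 RPM over the 12 libraries, that left 646 rows for testing. RPM are reads scaled so that all listed rows of a library sum to 1000000. The libraries comprised 6 from wild-type (WT) hearts and 6 from db/db hearts. db/db mice carry a defect of the leptin receptor gene in every cell of the body and become obese and diabetic. They thus model diabetes with obesity rather than a change made in the heart. The labels give the genotype, the tissue and the fraction, and number the samples of each genotype 1 to 6. They give no age, sex or treatment and do not say whether samples are separate animals, and p-values thus reflect only the spread among these samples, part of which may be technical. With mitochondria as the sole fraction, whether a miRNA lies inside them was not tested.

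A miRNA is cut from a hairpin precursor, either arm of which can enter an Argonaute protein such as Ago2 and guide it to target RNAs, mainly through the seed, bases 2 to 8 counted from the 5′ end. miR-378a is encoded in an intron of Ppargc1b, the gene of the transcriptional coactivator PGC-1β, which drives genes of oxidative metabolism and mitochondrial biogenesis, and it is abundant in heart, skeletal muscle and brown fat. Known roles of its 2 arms include restraint of oxidative metabolism through the carnitine acetyltransferase gene Crat and the Mediator gene Med13. miR-378a-3p has also been described in cardiac mitochondria, with the mitochondrial gene mt-Atp6 as a reported target. miR-378b, miR-378c and miR-378d come from other loci, and less is known of what they do.

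The 3 relatives are printed because their letters set which rows can be compared and which may share reads. Mature sequences matched by name in RefSeq (GRCm38.p6) for 3 of the 5 members, with the seed in capitals.
miR-378b: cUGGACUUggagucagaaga
miR-378c: aCUGGACUuggagucagaagc
miR-378d: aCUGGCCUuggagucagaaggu
Positions below are counted from 1 at the 5′ end of miR-378c. miR-378b began 1 base later and matched miR-378c at 19 of 20 aligned bases, the exception being C21A, its last base. miR-378d matched at 19 of 21 aligned bases, with A6C inside the seed and C21G near its end, and had 1 extra base. The seeds of the 3 therefore differed: miR-378b read UGGACUU through its later start, miR-378c CUGGACU and miR-378d CUGGCCU. The arms of miR-378a were not compared by sequence here. A read of miR-378b without its last base would match miR-378c as well, reads shared with miR-378a were not analysed here, and how the authors assigned such reads or how many mismatches they allowed is not stated in the labels or the file.

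The hairpins show where each mature miRNA (in capitals) lies in its precursor, again from RefSeq (GRCm38.p6).
miR-378b hairpin: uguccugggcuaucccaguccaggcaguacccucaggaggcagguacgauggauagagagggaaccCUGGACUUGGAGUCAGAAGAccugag
miR-378c hairpin: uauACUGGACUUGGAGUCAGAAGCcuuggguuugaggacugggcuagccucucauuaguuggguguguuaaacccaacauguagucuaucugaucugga
miR-378d hairpin: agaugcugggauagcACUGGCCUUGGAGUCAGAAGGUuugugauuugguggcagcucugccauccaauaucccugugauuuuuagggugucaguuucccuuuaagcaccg
The mature sequence began at base 67 of 92 in the miR-378b hairpin, on its 3′ side. It began at base 4 of 99 in miR-378c and at base 16 of 110 in miR-378d, on the 5′ side. In the GRCm38 annotation (GENCODE M21) the miR-378b gene, at chr11:88352773-88352864 on the plus strand, lay in an intron of Msi2, which runs on the opposite strand. The miR-378c gene, at chr14:46954830-46954928 on the minus strand, lay in an intron of Samd4, also on the opposite strand. The miR-378d gene, at chr10:126710282-126710391 on the minus strand, overlapped no other annotated gene. The miR-378a gene alone shared its strand with its host, Ppargc1b, and lay in an intron of it. An annotated miRNA gene, Gm25301, overlaps it on the other strand. These positions are in the build of the annotation, whereas the submitters' processing notes name GRCm39.

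Reads of the listed rows, recovered from the RPM values, numbered 412749 to 1382046 per library, with 551591 to 962697 in WT and 412749 to 1382046 in db/db. Reads outside the listed rows cannot be seen, so the full depth of a library is not known. The fewest reads were in db/db library 6 and WT library 4, which also stood apart from the rest on principal components in an earlier analysis of these data. Markers of heart muscle dominated both genotypes: the 6 cardiomyocyte miRNAs summed to 372617 to 425469 RPM (WT) against 342009 to 443847 RPM (db/db), led by miR-133a-3p. The defining miRNA of skeletal muscle, miR-206-3p, is not among the rows analysed here, and the liver miRNA miR-122-5p stayed at or below 27.5 RPM. Of the 646 rows tested 1, miR-22-3p, passed the threshold (limma adjusted p below 0.05), so that 0.155% of rows were called.

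miR-378a-3p made up most of the family and ranked among the most abundant miRNAs of every library, between the 5th and the 8th. By mean RPM over all libraries it stood 6th at 28215 RPM, miR-378c 29th at 5892, miR-378a-5p 46th at 2768, miR-378d 60th at 1237 and miR-378b 72nd at 716. This order held in 12 of 12 libraries for each pair of neighbours. The narrowest step was from miR-378d to miR-378b, whose ratio ran from 1.09 to 2.65, and the widest was from miR-378a-3p to miR-378c, from 4.09 to 6.02. Reads behind a value ranged from 13208 to 39587 for miR-378a-3p and from 369 to 856 for miR-378b, so counting error was small beside the spread between libraries for all 5. Levels of different miRNAs also carry any preference of adapter ligation for their ends, which was not tested here.

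The rows next to miR-378a-3p in mean level were miR-30a-5p above it, at 30752 ± 4947 RPM (SD over 12 libraries), and miR-143-3p of smooth muscle below it, at 25457 ± 6407 RPM. miR-30a-5p exceeded miR-378a-3p in 9 of 12 libraries and miR-143-3p did so in 4, so neither neighbour was set apart from it by its spread. miR-378a-5p stood between miR-30b-5p (3033 ± 751 RPM, higher in 8 of 12 libraries) and miR-199a-3p (2533 ± 318 RPM, higher in 6).

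**Figure D1:**
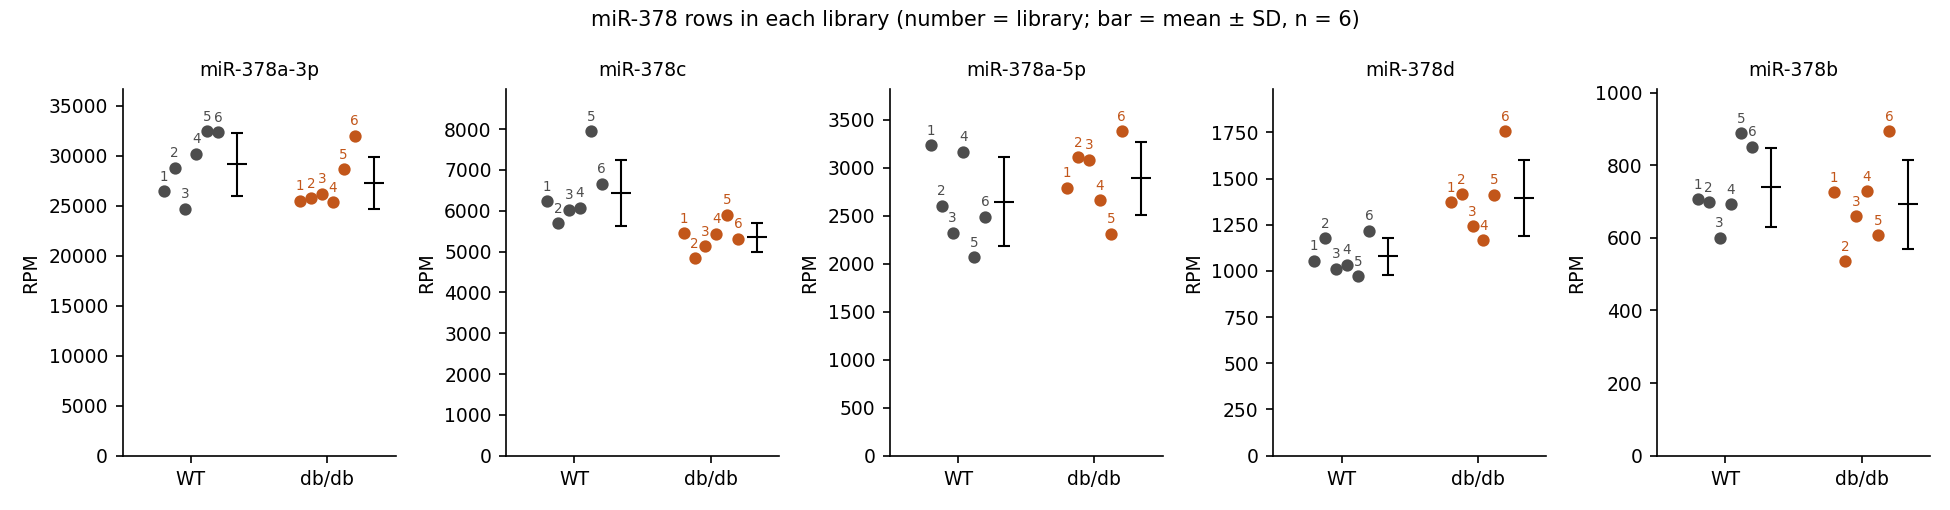
Each panel plots 1 miR-378 row in RPM on its own axis from 0, with a point per library (numbered) and the mean ± SD of the 6 WT and 6 db/db libraries. The genotypes overlap in all 5 panels; 5 of 6 db/db libraries of miR-378c lie below every WT library, and 5 of 6 of miR-378d lie above every WT library.

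Setting db/db against WT addressed whether the family differs in heart mitochondria of this diabetic model. None of the 5 members passed over the 646 rows tested, against 0.155% of all rows. The family split by member: miR-378d had higher values in db/db libraries and miR-378c lower ones, while miR-378a-3p, miR-378a-5p and miR-378b lay within 1 standard error of 0. The genotypes overlapped in all 5, against 0.929% of all rows whose genotypes did not overlap. At an unadjusted p under 0.05 limma had 2 of the 5 members, miR-378c and miR-378d, against 8.98% of all rows (4.64% lower and 4.33% higher). Log2 differences were above 0 for 2 members and below 0 for 3, with a median of -0.10 against -0.04 over all rows tested.

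miR-378a-3p, the guide arm most often studied, ranged from 24713 RPM in WT library 3 to 32472 RPM in WT library 5, with a WT median of 29515 RPM. In db/db it ran from 25377 RPM in library 4 to 32000.1 RPM in library 6, with a median of 26004 RPM. The genotypes overlapped over nearly their whole range, although the WT median exceeded 5 of 6 db/db libraries. The log2 difference was -0.10 ± 0.12 (SE; limma adjusted p = 0.733), and its 95% interval ran from 0.794 to 1.10 as a fold of the WT level. A fall to below 0.794 of the WT level or a rise of more than 1.10-fold lies outside that interval, and smaller differences could not be told from 0.

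miR-378a-5p, the other arm of the same hairpin, ran from 2069 RPM (library 5) through a median of 2546 to 3234 RPM (library 1) in WT. Its db/db values ran from 2311 RPM (library 5) through 2937 to 3379.8 RPM (library 6). Library 5 was the lowest of its genotype in both. The log2 difference of 0.13 ± 0.15 (SE; limma adjusted p = 0.719) had an interval of 0.896 to 1.34 as a fold. The sign was opposite to that of miR-378a-3p, but neither differed from 0 beyond its error.

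The ratio of miR-378a-3p to miR-378a-5p needs no scaling between libraries, since both arms come from 1 precursor and 1 library. It ran from 8.19 to 15.7 in WT (median 10.9) and from 8.29 to 12.4 in db/db libraries (median 9.30). On the log2 scale it averaged 3.47 ± 0.33 in WT and 3.24 ± 0.21 in db/db (SD, n = 6 each), a difference of -0.23 that did not exceed the spread (two-sided exact permutation p = 0.169). Library 5 had the highest arm ratio in both genotypes.

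miR-378c, the second most abundant of the 5, had 5697 RPM in WT library 2, a WT median of 6152 RPM and 7947 RPM in WT library 5. Its db/db values ran from 4836 RPM (library 2) through 5379 to 5901 RPM (library 5). The genotypes overlapped only where db/db library 5 exceeded WT library 2, and 5 of 6 db/db libraries lay below every WT library. The mean was 6438 ± 804 RPM (WT) against 5345 ± 357 RPM (db/db; SD, n = 6 each). The log2 difference was -0.26 ± 0.13 (SE; fold interval 0.697 to 0.998; limma unadjusted p = 0.0471, adjusted p = 0.543). It kept its sign with each library left out, between -0.30 and -0.20.

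miR-378d, whose seed differs from that of miR-378c by A6C, had 971 RPM in WT library 5, a WT median of 1045 RPM and 1219 RPM in WT library 6. Its db/db values ran from 1166 RPM (library 4) through 1393 to 1757 RPM (library 6). Here 5 of 6 db/db libraries lay above every WT library, and the exception, db/db library 4, lay below WT libraries 2 and 6. The mean was 1079 ± 97.9 RPM (WT) against 1395 ± 204 RPM (db/db; SD, n = 6 each). The log2 difference was 0.36 ± 0.16 (SE; fold 1.29, interval 1.03 to 1.60; limma unadjusted p = 0.0251, adjusted p = 0.504).

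The highest value of miR-378d came from the library with the fewest recovered reads, db/db library 6, where it rested on 725 reads. Without that library the log2 difference was 0.29, and without it and WT library 4 it was 0.28. On the recovered reads edgeR gave 0.41 (unadjusted p = 0.0106, adjusted p = 0.135) in a fit that called 0.464% of rows, with 24.6% at an unadjusted p under 0.05. DESeq2 gave 0.43 and called miR-378d higher (adjusted p = 0.0283), as 1 of 8 calls (4.71%) among the 170 rows with an adjusted p. It gave none to the other 476 rows, so its adjustment ran over fewer rows than that of limma or edgeR. Restricted to rows averaging 10 or 100 RPM or more, limma gave miR-378d adjusted p-values of 0.189 and 0.108. Why DESeq2 alone called it was not tested. At an unadjusted p under 0.05 DESeq2 had 1 member against 6.97% of all rows.

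miR-378b, the least abundant row, ran from 600.4 RPM (library 3) through 703 to 889 RPM (library 5) in WT. Its db/db values ran from 535 RPM (library 2) through 693 to 894 RPM (library 6) and so spanned the whole WT range. The log2 difference of -0.10 ± 0.18 (SE; limma adjusted p = 0.823) had an interval of 0.728 to 1.19 as a fold.

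**Figure D2:**
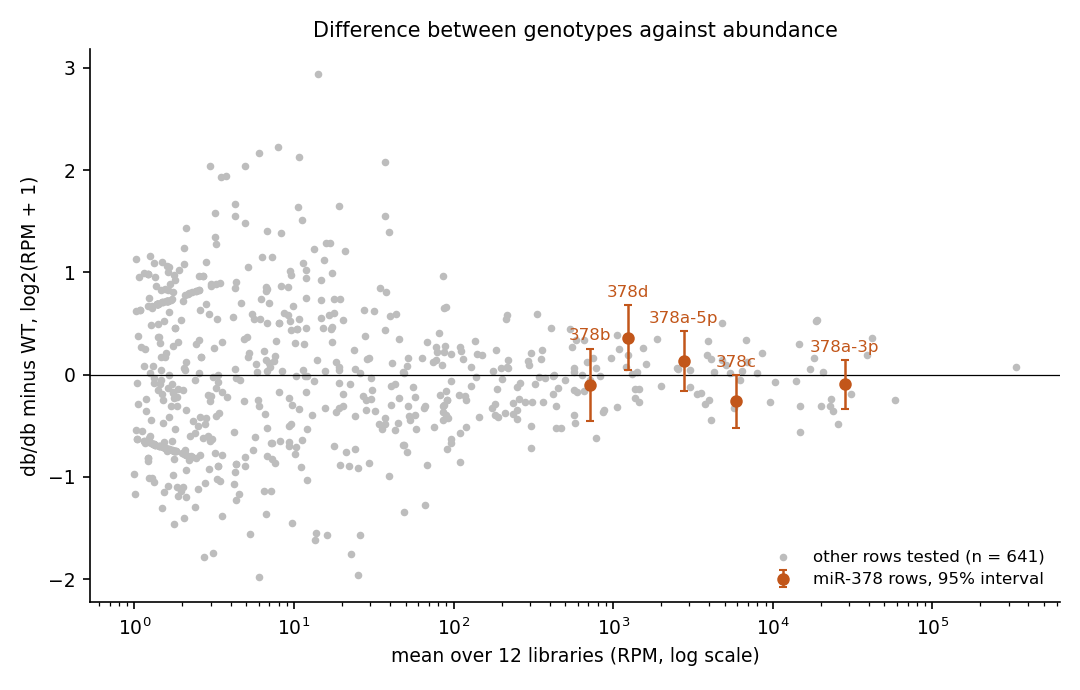
The plot shows, for each of the 646 rows tested, the mean over 12 libraries in RPM (log axis) against db/db minus WT on the log2(RPM + 1) scale. The 5 miR-378 rows, in orange with 95% intervals, lie between -0.26 and 0.36; the intervals of miR-378a-3p, miR-378a-5p and miR-378b include 0.

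Together the 5 rows took up 4.01% ± 0.368 of the reads of listed rows in WT and 3.76% ± 0.310 in db/db (SD, n = 6 each), with ranges of 3.47 to 4.43% and 3.54 to 4.33%. Its makeup was nearly fixed for the main row: miR-378a-3p was 72.7% ± 1.59 of the family in WT and 72.5% ± 1.06 in db/db. miR-378c made up 16.1% ± 1.40 in WT and 14.3% ± 1.22 in db/db, and miR-378a-5p 6.67% ± 1.39 and 7.71% ± 0.976. miR-378b was 1.84% of the family in both (SD 0.127 in WT and 0.255 in db/db). miR-378d was 2.71% ± 0.305 in WT and 3.70% ± 0.303 in db/db, the 1 share of the 5 whose genotypes did not overlap. The nearest libraries were WT 2 at 3.02% (95% Wilson interval 2.81 to 3.24%, counting error only) and db/db 4 at 3.30% (3.09 to 3.51%), and these intervals overlapped. The share of miR-378d restates its ratios to the other members, given below, and is not a separate result. How often shares of other rows separate the genotypes was not computed.

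Relative to each of 3 relatives, miR-378d rose in db/db libraries. Ratios of all 10 pairs of members were compared within libraries, after the members' values had been seen. 3 of the 10 passed (exact permutation tests, two-sided, adjusted over the 10), and each of the 3 contained miR-378d. The genotypes did not overlap in 2 of the 10, against 1.54% of the pair ratios among all rows averaging 100 RPM or more. Since the 10 ratios share rows, they are not independent. They also restate member levels already seen, and adjusting over the 10 does not cover that choice. Their p-values therefore describe the separation in these libraries and add no separate support for a difference in miR-378d.

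The ratio of miR-378c to miR-378d was 4.84 in WT library 2, 5.88 at the WT median and 8.18 in WT library 5. In db/db it was 3.03 in library 6, 4.05 at the median and 4.67 in library 4, so that all 6 db/db libraries lay below all 6 WT libraries. On the log2 scale it fell from 2.57 ± 0.25 to 1.95 ± 0.22 (SD, n = 6 each), a difference of -0.63 (exact permutation p = 0.00216, the smallest that 6 against 6 can give, adjusted p = 0.0108). The difference ran from -0.69 to -0.53 with 1 library left out.

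The ratio of miR-378a-3p to miR-378d ran from 24.4 to 33.4 in WT (median 25.8) and from 18.2 to 21.8 in db/db (median 19.4), again with no overlap. On the log2 scale the difference was -0.46 (exact permutation p = 0.00216, adjusted p = 0.0108). The ratio of miR-378d to miR-378b ran from 1.09 to 1.69 in WT and from 1.60 to 2.65 in db/db, where 5 of 6 libraries lay above every WT library (log2 difference 0.47, exact permutation p = 0.00649, adjusted p = 0.0216). This last call was lost without WT library 4 and db/db library 6 (0.48, adjusted p = 0.0794). Against miR-378a-5p the ratio of the 5p arm to miR-378d differed by -0.23 (exact permutation p = 0.143, adjusted p = 0.238).

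Ratios of this kind seldom separated the genotypes in the table as a whole. Of the 10731 pairs among the 147 rows averaging 100 RPM or more, 165 had ratios that did not overlap between the genotypes, or 1.54%. miR-378d had 18 such ratios among its 146 partners (12.3%), more than any other row but 1. They included ratios to miR-378a-3p, miR-143-3p, miR-24-3p and miR-23a-3p, its most abundant partners of the 18. These 18 ratios all contain miR-378d and are not independent. Every partner of the 18 except miR-149-5p (0.02) had a log2 difference below 0, among them miR-22-3p (-0.56), the row that limma called, and miR-143-3p (-0.48). miR-378a-3p had 4 (2.74%), miR-378c 3 (2.05%), and miR-378a-5p and miR-378b 0.

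**Figure D3:**
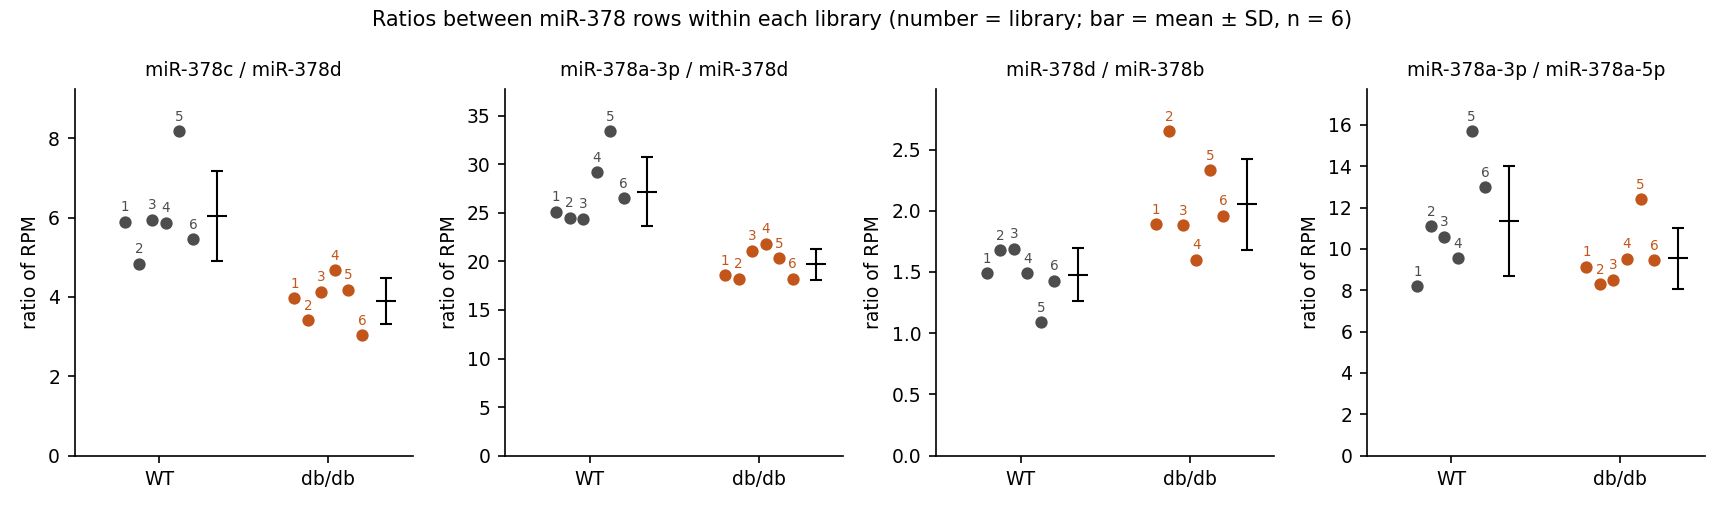
Each panel plots a ratio of RPM between 2 miR-378 rows of the same library, on an axis from 0, with a point per library (numbered) and the mean ± SD of 6. miR-378c/miR-378d and miR-378a-3p/miR-378d do not overlap between the genotypes; miR-378d/miR-378b and miR-378a-3p/miR-378a-5p do.

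The members did not all move together from library to library. Across the 12 libraries miR-378a-3p correlated with miR-378b (Pearson r = 0.72, permutation p = 0.00870, adjusted over the 4 relations 0.0348; Spearman rho = 0.55, permutation p = 0.0667). With miR-378c r was 0.57 (permutation p = 0.0467, adjusted 0.0933; rho = 0.50, permutation p = 0.104). With miR-378d r was 0.08 (permutation p = 0.800; rho = -0.04, permutation p = 0.904) and with miR-378a-5p, the arm of its own hairpin, -0.16 (permutation p = 0.622; rho = -0.06, permutation p = 0.851). Without WT libraries 5 and 6, the 2 farthest from the median of miR-378a-3p, r was 0.54 for miR-378b, 0.14 for miR-378c, 0.41 for miR-378d and 0.35 for miR-378a-5p. The relation with miR-378b then no longer passed (permutation p = 0.108) and its rho was 0.26. Leaving out libraries extreme in miR-378a-3p also narrows its range, so this cannot tell whether the call rested on them. Without WT 4 and db/db 6 the call was lost too (r = 0.69, permutation adjusted p = 0.0570). Within WT the correlation with miR-378b was 0.89 (exact permutation p = 0.0306, adjusted p = 0.122), with rho = 0.77. Within db/db, which holds neither WT library 5 nor WT library 6, it was 0.54 (exact permutation p = 0.306, adjusted p = 0.608), but rho was only 0.03. With miR-378d it was 0.23 within WT (exact permutation p = 0.667) and 0.85 within db/db (exact permutation p = 0.0722), where library 6 was highest in both rows.

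**Figure D4:**
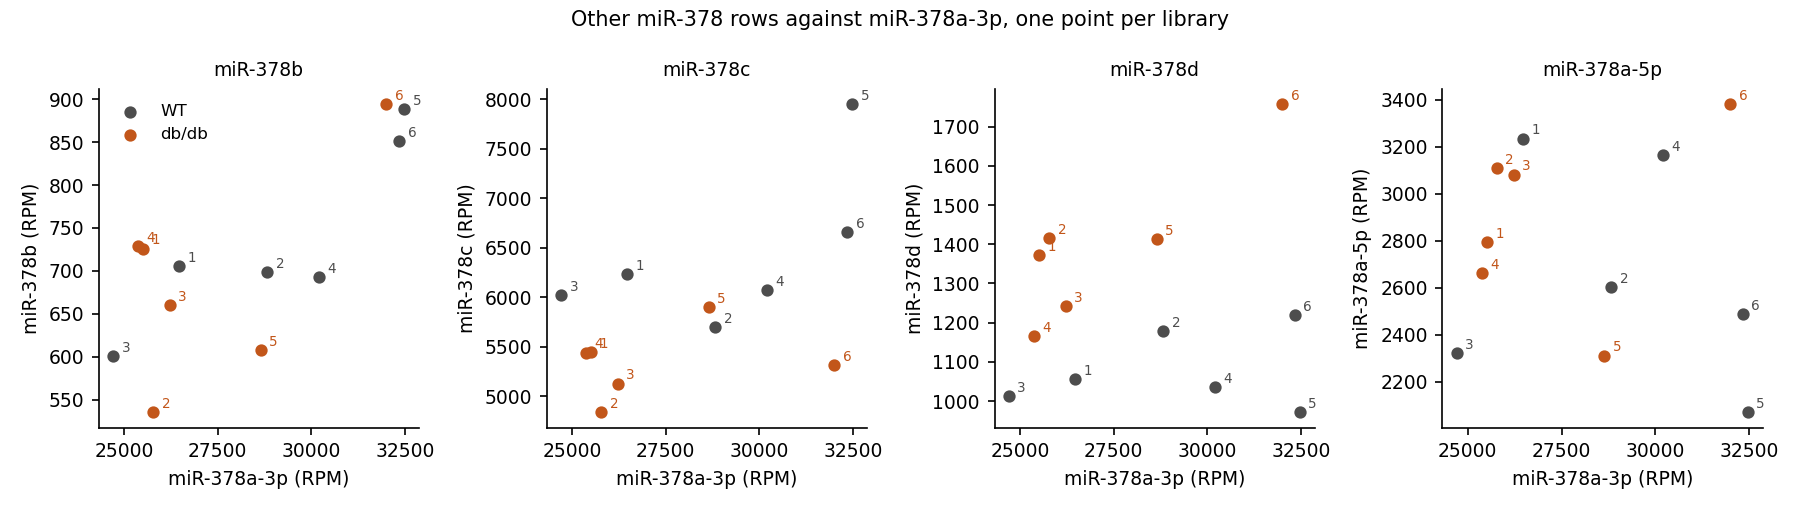
Each panel plots 1 other miR-378 row (RPM) against miR-378a-3p (RPM), with 1 numbered point per library in grey (WT) or orange (db/db); the axes do not start at 0. Over all 12 libraries points of miR-378b follow miR-378a-3p (r = 0.72, or 0.54 without WT libraries 5 and 6), but by rank not within db/db (rho = 0.03). In the miR-378d panel the db/db libraries lie above WT libraries of like miR-378a-3p level.

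The rows whose pattern across the 12 libraries was most like that of miR-378a-3p were not its relatives. Among 146 other rows averaging 100 RPM or more, the highest Pearson r belonged to miR-16-5p (0.92), miR-15b-5p (0.87), the endothelial miR-126a-3p (0.86), miR-374b-5p (0.82) and miR-27a-3p (0.79). With each genotype centred on its own mean these were 0.92, 0.86, 0.85, 0.80 and 0.77. By pooled r miR-378b ranked 7th, miR-378c 22nd, miR-378d 64th and miR-378a-5p 89th. Centred in the same way, r was 0.70 for miR-378b, 0.56 for miR-378d (0.08 pooled), 0.50 for miR-378c and -0.06 for miR-378a-5p. These correlations describe rows that share the depth and scaling of each library.

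By sample number, a grouping noticed in an earlier analysis of these data and named as a batch nowhere in the labels, the mean of miR-378a-3p was 26257 RPM for libraries 1 to 3 and 30173 RPM for 4 to 6. This difference was 0.20 ± 0.10 on the log2 scale (SE; limma unadjusted p = 0.0546, adjusted p = 0.511). miR-378b stood at 0.24 ± 0.17, miR-378c at 0.15 ± 0.12, miR-378d at 0.04 ± 0.15 and miR-378a-5p at -0.10 ± 0.13 (SE). None of the 5 passed, against 2.63% of all rows between these numbers. With this grouping as a factor limma called 1.55% of rows between the genotypes and none of the 5, and at an unadjusted p under 0.05 it had 2 members against 10.2% of rows. Within libraries 1 to 3 and within 4 to 6, db/db minus WT for miR-378c/miR-378d was -0.53 and -0.72 on the log2 scale, and 3 against 3 libraries cannot go below an exact p of 0.1.

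Against other miRNAs of heart muscle the level of miR-378a-3p showed no difference beyond the spread. Its ratio to miR-133a-3p ran from 0.0721 to 0.106 in WT and from 0.0687 to 0.108 in db/db (log2 difference -0.17, exact permutation p = 0.249, adjusted over the 4 ratios 0.597). For miR-1a-3p, the partner of miR-133a in muscle, the difference was 0.16 (exact permutation p = 0.498, adjusted p = 0.619). The myosin intron miRNAs miR-499-5p, from Myh7b, and miR-208a-5p, from Myh6, gave 0.17 (exact permutation p = 0.299, adjusted p = 0.597) and 0.07 (exact permutation p = 0.619, adjusted p = 0.619).

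Lists around the family were described by counts. Of the miRNAs in introns of metabolic genes, a list that besides miR-378a holds miR-33 of the sterol regulator gene Srebf2 and miR-103 and miR-107 of the pantothenate kinase genes of coenzyme A synthesis, 5 of 8 listed were tested. 0 were called in either direction and 4 of 5 lay below 0 (median -0.05 against -0.04 over all rows). Means of miR-103-3p were 6363 ± 1336 RPM (WT) and 6107 ± 1055 RPM (db/db), and those of miR-107-3p 827 ± 140.3 and 833 ± 187 RPM (SD, n = 6 each). Myosin intron miRNAs had 0 of 5 called and a median of -0.16. Of 10 tested miRNAs described in mitochondria, miR-378a-3p among them, 0 were called and 7 lay below 0 (median -0.27), with miR-92a-3p at 0.51 ± 0.15 and miR-21a-5p at -0.45 ± 0.15 (SE). Glucose and lipid metabolism miRNAs had 0 of 10 called and a median of -0.17, with 8 below 0 and 2 above. Among them were miR-143-3p, the most abundant, at -0.48 ± 0.13, miR-29a-3p at 0.05 ± 0.13 and miR-27b-3p at -0.07 ± 0.13 (SE).

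Marker miRNAs of other cells were read beside these values, since bulk libraries cannot tell fewer cells of a type from less RNA per cell. Red cell miRNAs (5 of 5 listed) summed to 18648 to 41659 RPM (WT) against 35661 to 58147 RPM (db/db). Nearly all of this sum lay in miR-486b-5p (mean 18941 RPM over 12 libraries) and miR-486a-5p (18574 RPM). Each had a log2 difference of 0.53 ± 0.14 (SE). Their levels were nearly equal, with WT means of 15673 and 15389. The db/db means, in the same order, were 22209 and 21760.1. The 2 rows are therefore not read as separate markers. Whether they share reads, and from which cells these reads came, was not tested. The scarcer miR-451a (1528 RPM) lay at 0.26 ± 0.27, within 1 standard error of 0. For miR-144-5p (35.6 RPM) the difference was -0.53 ± 0.63 (SE). Of the 5, 4 lay above 0, both miR-486 rows among them, and 1 below. Smooth muscle and fibroblast miRNAs (6 of 6) summed to 34520.5 to 47868 RPM (WT) against 25028 to 39731 RPM (db/db). Of these 6, 2 lay above 0 and 4 below, with miR-143-3p, the most abundant, at -0.48 ± 0.13 and miR-199a-3p at 0.06 ± 0.14 (SE). Endothelial miRNAs (2 of 2) summed to 18852 to 29569 and 15588 to 25095 RPM, and leukocyte miRNAs (5 of 5) to 3308 to 5171 and 2981 to 6769 RPM. Leukocyte rows did not share a direction, with 3 above 0 and 2 below. The most abundant, miR-150-5p, lay at 0.20 ± 0.16 and miR-223-3p at -0.72 ± 0.22 (SE, limma adjusted p = 0.109). Brown adipocyte miRNAs (4 of 4), of a tissue that also holds much miR-378a, summed to 412 to 720.0 RPM (WT) against 409 to 611 RPM (db/db). Of these 4, 2 lay above 0 in log2 difference and 2 below. miR-193b-3p had means of 60.9 ± 30.9 RPM (WT) and 111 ± 31.3 RPM (db/db, SD, n = 6 each, limma adjusted p = 0.284). The more abundant miR-455-3p had 274 ± 88.4 and 245 ± 25.0 RPM, and miR-365-3p 218 ± 71.8 and 161 ± 40.0 RPM, in the same order. No marker in these lists was at 0 in every library and none was called. Their part in the values of miR-378c and miR-378d was not tested.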

How the data were processed

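Small RNA libraries of cardiac mitochondria from 6 WT and 6 db/db samples were read from 1 deposited table, with groups from the sample titles. The authors named its values TPM; each column sums to 1000000 and holds whole multiples of 1 read's worth, and the deposited values were therefore treated as RPM. Recovered whole reads fitted 100% of values within 0.01 of a read. Per the submitters' processing notes the build was GRCm39, with the aligner and annotation not stated there. Reads are not unique molecules, and the Wilson intervals of shares cover counting error only. The limma intervals of fold changes reflect the spread among libraries.

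limma 3.58.1 (R 4.3.3) was fitted with an abundance trend to log2(RPM + 1) of the rows averaging 1 RPM or more; p-values were two-sided, Benjamini-Hochberg adjusted over all 646 rows and called under 0.05. Fold changes are on that scale. edgeR 4.0.16, DESeq2 1.42.0, other pseudocounts, filters and scalings, a replicate block and left-out libraries were alternatives; the limma script was tested on simulated data. Ratios were compared by exact permutation over 924 assignments. Those between members were added after the members' values were seen, which their adjustment does not cover. Members and lists were chosen with earlier results of these data known, so the family total and shares, which sum over the members, are described without a test. By rule, the text names all members, their neighbours in level, the 5 rows most like miR-378a-3p, 4 muscle partners and up to 4 members of each list; partners of miR-378d in ratios were named after their values were seen. Python 3.11.15 with matplotlib 3.10.9 drew the plots.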

Additional observations from a re-analysis of the deposited data

Results flagged for a closer look

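In 52 groups of 6 values (levels, shares and ratios of the family in each genotype) a library far from the other 5 was sought, and 3 were found, where chance gives about 1 in 20, or 2.60 here. The ratio of miR-378a-3p to miR-378a-5p reached 12.4 in db/db library 5, with 9.53 the next highest db/db value, a gap of 0.698 of the range. It was counted both as the arm ratio and as 1 of the 10 pairs, so 2 of the 3 are the same value. The ratio of miR-378c to miR-378d reached 8.18 in WT library 5, with 5.95 the next highest WT value (a gap of 0.669). Library 5 of each genotype was the one with most recovered reads of its genotype (962697 in WT and 1382046 in db/db). The part of depth in these values was not tested.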

How the results depend on the processing

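Over all rows limma called 1 miRNA. It called 0 when 0.1 or 10 RPM was added before logs, when all rows were kept or those averaging 10 or 100 RPM or more, without a variance trend or without WT 4 and db/db 6, 2 after median-of-ratios scaling, 9 with the replicate block, 10 with a factor for the numbers (1 to 3, 4 to 6), 0 to 7 with 1 library left out (leaving out WT 1 or WT 3 gave 6 calls, db/db 4 gave 3, db/db 5 gave 7, db/db 6 gave 1 and any other gave 0) and 3 within numbers 4 to 6. edgeR called 3 (9 with that factor) and DESeq2 8, of which 1 was a member, miR-378d (0.43). The cause was not tested. No other setting called a member: each fit without 1 library gave 0, with miR-378a-3p at -0.14 to -0.06, miR-378a-5p at 0.07 to 0.20, miR-378b at -0.18 to -0.03, miR-378c at -0.30 to -0.20 and miR-378d at 0.29 to 0.41.

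With 1 library left out the shares differed by 0.89 to 1.07 percentage points for miR-378d, -0.73 to 0.07 for miR-378a-3p and -0.05 to 0.07 for miR-378b, miR-378a-3p/miR-378b by -0.05 to 0.04 and miR-378a-3p/miR-208a-5p by -0.02 to 0.13. The 3 pair ratios that passed did so with each library left out. The share of miR-378d differed by 0.83 within numbers 1 to 3 and 1.16 within 4 to 6. Of the ratios, in the same order, miR-378a-3p/miR-378d differed by -0.36 and -0.56, miR-378c/miR-378d by -0.53 and -0.72 and miR-378d/miR-378b by 0.38 and 0.55, none able to pass with 3 against 3. Signs turned for the share of miR-378a-3p within 1 to 3 (0.06) and, within 4 to 6, for the share of miR-378b (0.01), miR-378a-3p/miR-378b (-0.01) and miR-378a-3p/miR-499-5p (-0.08). Without WT 4 and db/db 6 miR-378d/miR-378b was 0.48 and did not pass.

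Same-numbered samples did not deviate together (correlations -0.05 to 0.12), and 1 of 6 numbers correlated best with itself, so the numbers were not taken as pairs. With the replicate block the share of miR-378d differed by 0.99. Under that block the ratios miR-378a-3p/miR-378d (-0.46), miR-378c/miR-378d (-0.63, below 0 in 6 of 6 differences) and miR-378d/miR-378b (0.47) did not pass; 6 differences cannot go below an exact permutation p of 0.0312, which adjustment lifts above the threshold.

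The relation of miR-378a-3p with miR-378b was 0.54 without WT 5 and 6 (rho 0.26) and 0.69 without WT 4 and db/db 6 (rho 0.47). It was 0.89 in WT (rho 0.77) and 0.54 in db/db (rho 0.03), and none of these passed after adjustment. After median-of-ratios scaling it was 0.74 and passed (permutation adjusted p = 0.0300, with rho 0.78). Without WT 4 and db/db 6 that with miR-378c was 0.75 and passed, and that with miR-378d turned to -0.20. The relation with miR-378a-5p turned to 0.35 without WT 5 and 6 and to 0.25 within db/db. edgeR with the factor and the fits within numbers 1 to 3 or 4 to 6 were chosen after seeing the data.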
